A study of Mus musculus with 2 samples.

Results

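The TNF ligand and receptor superfamily genes were taken as the protein-coding genes of the mm9 annotation (GENCODE vM1) whose symbol begins with Tnfsf or Tnfrsf followed by a digit. This rule found 31 of 22254 protein-coding genes on the numbered chromosomes and X, of which 11 were ligand genes and 20 receptor genes. It reads the symbol alone, so that relatives such as Fasl, Cd27 or Tnf are described separately. A deposited Tcf1 peak was given to a gene when its summit lay in the gene body or within 20 kb of either end. By this window, 56 of the 22286 deposited peaks fell at the 31 genes.

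Tcf1 binding was measured by ChIP-seq, with a rabbit antiserum raised against full-length Tcf1, in naïve CD8+ T cells sorted from mouse spleen as GFP+ TCRbeta+ CD62Lhi CD44lo-med CD8+ cells. There was 1 WT library and 1 library from Tcf1-deficient cells, and the deposited peaks were called on the former with the latter as control. The design text of the series describes hCD2-Cre and Rosa26-lsl-GFP in all mice, with Tcf1 and Lef1 either wild type or both floxed, and the genotype label of the control reads Tcf1-/-Lef1-/-. The methods of the study instead give Cd4-Cre+ Tcf7 fl/fl mice for this antiserum, so whether the control cells also lacked Lef1 is not settled by these sources. Both Cre transgenes act in lymphocytes. All strains were on the C57BL/6 background. The study used young adult mice of both sexes, and how many gave cells for each library is not stated. After removal of duplicates the libraries held 36938606 (WT) and 27625250 (Tcf1-deficient) fragments. Identity of the sorted cells, and loss of the Tcf7 transcript, could not be checked in a list of peaks, since neither is a measure of expression. With 1 library per group there is no replicate error, and the peak caller's p compares these 2 libraries, not the genotypes.

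Members of the TNF superfamily signal in pairs of a trimeric ligand on one cell and a receptor on another. Receptors with a cytoplasmic death domain can start apoptosis, many others recruit TRAF adaptors and feed into NF-kappaB, and decoy receptors bind ligand without passing on such signals. On T cells a group of receptors, among them OX40 (Tnfrsf4), CD137 (Tnfrsf9), GITR (Tnfrsf18), HVEM (Tnfrsf14), CD30 (Tnfrsf8) and DR3 (Tnfrsf25), delivers costimulatory signals after antigen has been met, and TNFR2 (Tnfrsf1b) supports T cell survival. Another group, BAFFR (Tnfrsf13c), TACI (Tnfrsf13b) and BCMA (Tnfrsf17), serves B cells and plasma cells. Tcf1 is a transcription factor of the HMG-box family, and its preferred DNA sequence centres on ATCAAAG.

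The 7 bases ATCAAAG, the Tcf/Lef core, were found on either strand and no more than 100 bp from the summit in 9 of the 56 peaks (16.1%), against 9.77% of all 22227 deposited peaks on the numbered chromosomes and X. The peaks below are examples from 5 genes, each the strongest such peak of its gene outside exons, shown because they are places where these loci carry the sequence that Tcf1 itself prefers. Each is the reference sequence of mm9 from 100 bp before to 100 bp after the summit, on the plus strand, and capitals mark the core or its reverse complement.
Tnfrsf19 upstream (chr14:61675446-61675646): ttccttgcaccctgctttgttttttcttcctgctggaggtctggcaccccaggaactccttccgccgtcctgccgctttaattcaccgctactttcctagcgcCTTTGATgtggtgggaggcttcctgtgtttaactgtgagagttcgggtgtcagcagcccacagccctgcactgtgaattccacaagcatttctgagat
Tnfrsf26 intron (chr7:150811120-150811320): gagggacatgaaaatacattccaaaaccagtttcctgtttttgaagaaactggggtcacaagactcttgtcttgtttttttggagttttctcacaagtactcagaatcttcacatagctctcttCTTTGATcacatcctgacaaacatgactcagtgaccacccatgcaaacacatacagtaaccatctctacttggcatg
Tnfrsf1b intron (chr4:144831015-144831215): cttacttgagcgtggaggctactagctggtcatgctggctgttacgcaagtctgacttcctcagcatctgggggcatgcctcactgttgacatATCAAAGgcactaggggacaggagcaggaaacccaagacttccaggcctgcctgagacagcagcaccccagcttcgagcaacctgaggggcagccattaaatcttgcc
Tnfsf14 downstream (chr17:57328353-57328553): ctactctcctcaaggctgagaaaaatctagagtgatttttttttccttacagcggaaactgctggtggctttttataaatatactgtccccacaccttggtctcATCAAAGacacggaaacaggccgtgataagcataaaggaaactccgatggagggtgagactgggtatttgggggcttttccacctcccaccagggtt
Tnfrsf25 upstream (chr4:151470091-151470291): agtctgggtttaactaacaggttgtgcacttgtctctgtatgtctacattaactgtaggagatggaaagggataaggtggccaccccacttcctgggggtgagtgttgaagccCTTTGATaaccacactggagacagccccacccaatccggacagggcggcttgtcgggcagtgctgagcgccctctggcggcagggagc
In these 5 windows the nearest core lay between 4 bp (Tnfrsf1b) and 27 bp (Tnfrsf26) from the summit. The windows differed widely in height. The Tnfrsf19 window belonged to a peak of 173 fragments, whereas the Tnfsf14 and Tnfrsf25 windows belonged to peaks of 32 and 29 fragments. The Tnfrsf25 window lay 0.637 kb from a start of a neighbouring gene, Plekhg5.

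A further 3 peaks, each of 100 or more fragments and outside exons, had no exact Tcf/Lef core but held the Runx core TGTGGTT, a sequence bound by Runx factors. They are shown for contrast, in the same frame, with capitals on the Runx core or its reverse complement. This set was chosen after its values were seen.
Tnfrsf1b intron, strongest (chr4:144826078-144826278): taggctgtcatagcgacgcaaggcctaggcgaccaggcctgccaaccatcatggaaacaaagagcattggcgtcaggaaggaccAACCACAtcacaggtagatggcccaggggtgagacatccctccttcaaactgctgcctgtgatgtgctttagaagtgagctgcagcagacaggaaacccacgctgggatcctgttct
Tnfrsf4 and Tnfrsf18, between the genes (chr4:155396406-155396606): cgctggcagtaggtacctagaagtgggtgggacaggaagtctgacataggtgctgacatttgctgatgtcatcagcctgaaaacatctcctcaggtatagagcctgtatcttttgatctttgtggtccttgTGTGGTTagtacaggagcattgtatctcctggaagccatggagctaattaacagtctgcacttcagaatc
Tnfrsf14 upstream (chr4:154310738-154310938): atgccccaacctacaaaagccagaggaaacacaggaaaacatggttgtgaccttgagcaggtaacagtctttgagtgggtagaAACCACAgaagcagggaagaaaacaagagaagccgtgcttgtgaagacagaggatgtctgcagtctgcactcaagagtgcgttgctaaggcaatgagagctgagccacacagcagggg
The Runx core lay 13 bp from the summit in the Tnfrsf1b window, 34 bp in the window between Tnfrsf4 and Tnfrsf18, and 14 bp in the Tnfrsf14 window. The absence of ATCAAAG from these windows says only that these exact letters are missing, and more distant relatives of the core were not searched.

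At least 1 Tcf1 peak was found at 21 of the 31 genes (67.7%), against 58.9% of all protein-coding genes in windows built in the same way. Under the stricter cut-offs the study used for high-confidence peaks (enriched 4-fold or more, q under 0.05 and the caller's own limit of 1e-05 on p), the numbers were 20 genes (64.5%) and 55.4%. The gene that dropped out was Tnfsf14, which encodes LIGHT. Having a peak was therefore about as common among these genes as in the genome, and no test was made of that difference. Peak height at the genes stood further from the background: 12 of the 31 genes (38.7%) had a strongest peak of 100 or more fragments, against 12.3% of all protein-coding genes. Several of these 12 genes share a peak, however, because 4 pairs of neighbours (Tnfrsf1b and Tnfrsf8, Tnfrsf4 and Tnfrsf18, Tnfrsf22 and Tnfrsf26, Tnfsf12 and Tnfsf13) lie close enough for their windows to overlap, and 13 peaks count for both genes of a pair. Counted once, 12 of the 56 peaks (21.4%) reached 100 fragments, against 12.7% of all peaks. The genes had a median body of 20.1 kb, against 15.5 kb for all protein-coding genes, so that their windows were somewhat longer.

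**Figure D1:**
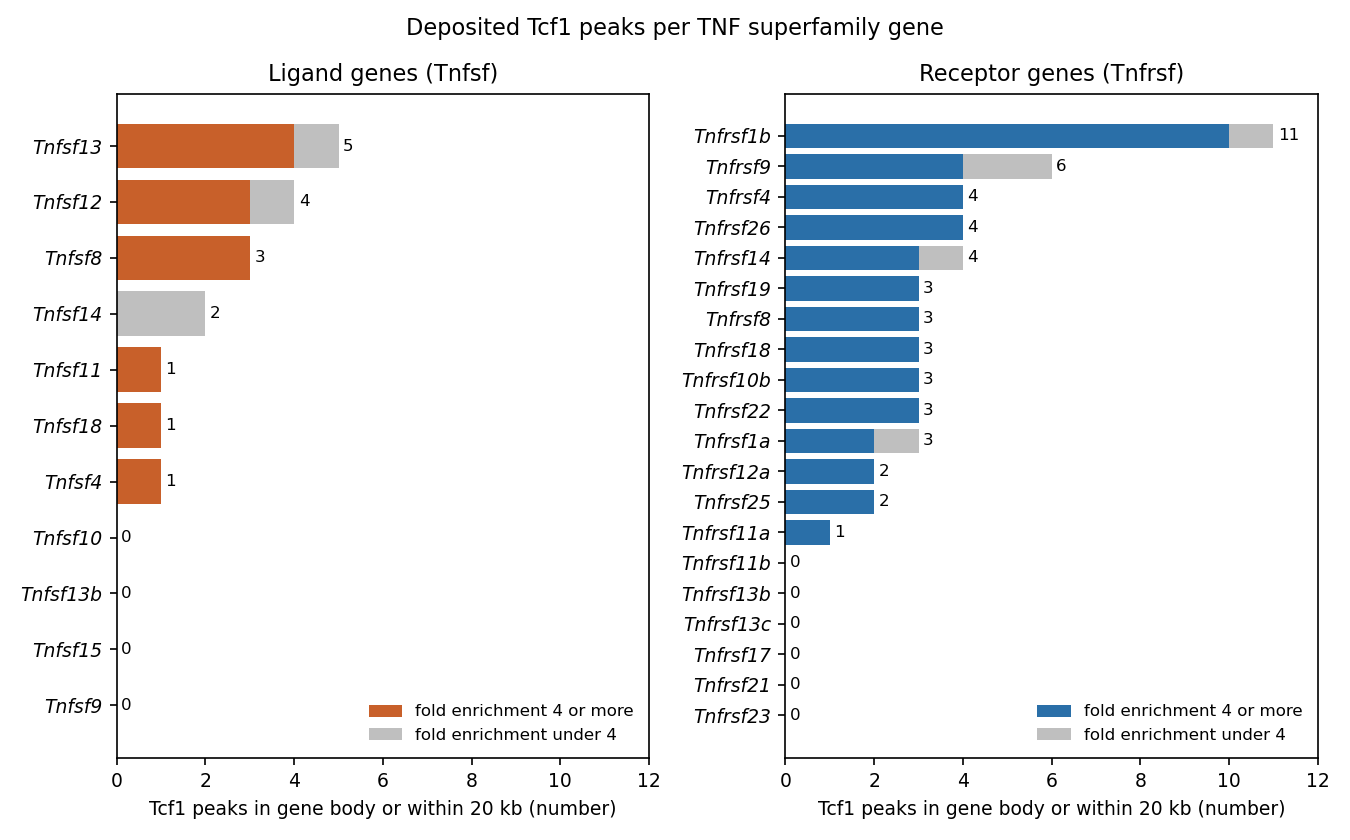
Number of deposited Tcf1 peaks with a summit in the gene body or within 20 kb (horizontal axis) for each of the 11 ligand genes (left) and 20 receptor genes (right). Coloured bars count peaks enriched at least 4-fold and grey bars those under it. Tnfrsf1b has 11 peaks, the next receptor 6, and 4 ligand and 6 receptor genes have 0.

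Among the 31 genes, receptor genes carried more peaks per gene than ligand genes, and a higher strongest peak, whereas the heights of single peaks gave no one order. Over distinct peaks the median pileup was 47 fragments for the 13 ligand peaks and 35 for the 43 receptor peaks, while the upper quartile was 57 and 82 fragments, and 2 ligand peaks (15.4%) and 10 receptor peaks (23.3%) reached 100. A peak was found at 7 of 11 ligand genes (63.6%) and 14 of 20 receptor genes (70.0%). At least 3 peaks were found at 3 ligand genes (27.3%) and 11 receptor genes (55.0%), against 21.2% of all protein-coding genes. The mean number of peaks was 1.55 per ligand gene and 2.60 per receptor gene, against 1.5 per protein-coding gene. Without Tnfrsf1b the receptor mean was 2.16. Relative to the length of the windows, there were 2.71 peaks per 100 kb at ligand genes and 4.0 at receptor genes, against 1.75 over all protein-coding genes. Among genes with a peak, the strongest peak had a median pileup of 53 fragments at ligand genes (range 27 to 133) and 154 at receptor genes (range 29 to 543), so the ranges overlapped. Over all protein-coding genes with a peak the median was 53. The ligand median depended on weak peaks. It was 89.5 with high-confidence peaks and 126 with a fold enrichment of at least 8 or q under 1e-10. The receptor median was then 154, 155 and 155. At a fold enrichment of at least 8, only 36.4% of ligand genes still had a peak. The 126 fragments are 1 peak that counts for both Tnfsf12 and Tnfsf13 and lies nearest the start of Eif4a1. Both medians also moved with the assignment. By nearest coding start they were 48 (ligands) and 112 (receptors), and with 5-kb flanks 29.5 and 70.0. These are descriptions of 1 peak list: genes are not replicates, and the difference between ligands and receptors was not tested. The direction of the share with any peak also turned with the window: with flanks of 50 kb it was 90.9% of ligand and 85.0% of receptor genes.

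**Figure D2:**
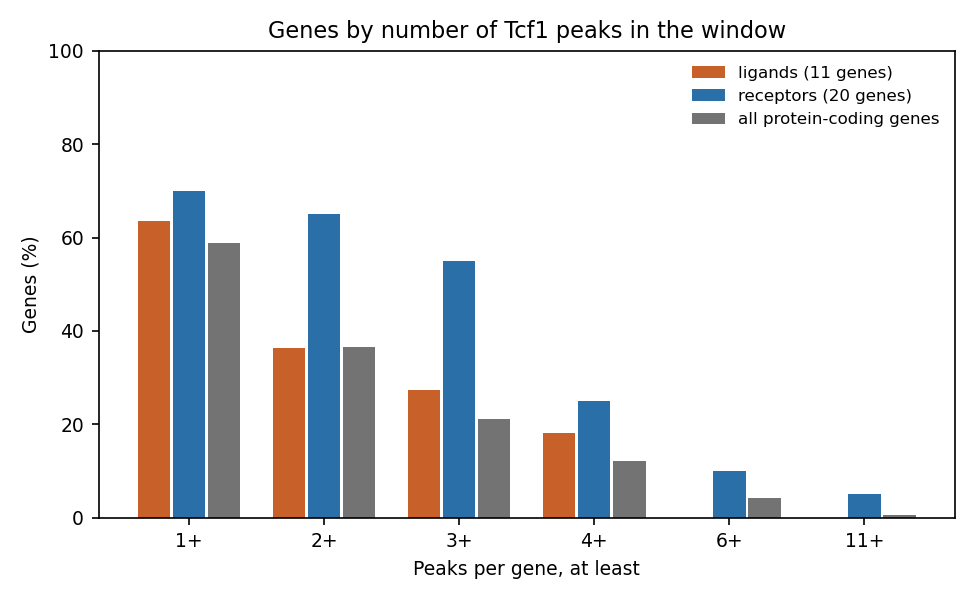
Percent of genes (vertical axis) with at least the number of peaks on the horizontal axis, for 11 ligand genes, 20 receptor genes and all 22254 protein-coding genes. At 1 or more peaks the groups are at 63.6%, 70.0% and 58.9%, while at 3 or more peaks receptors are at 55.0% and ligands at 27.3%.

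The receptor for TNF that is expressed mainly on lymphocytes, TNFR2, had by far the most peaks. Tnfrsf1b (ENSMUSG00000028599.4, chromosome 4, 144803366 to 144836773, minus strand) held 11 peaks, 10 of them of high confidence, and only 0.629% of all protein-coding genes had 11 or more. The strongest lay in an intron 10.6 kb downstream of the gene start, at 144825676 to 144826628, with 543 WT fragments over the summit (Poisson 95% interval 498 to 591) against a control level of 8.69 fragments, a fold enrichment of 56.1. A strongest peak of this height or more was found at 38 of the 22254 protein-coding genes (0.171%). It was followed by a peak 7.79 kb upstream, with 189 fragments (163 to 218) against 5.42. Next came an exon peak 22.1 kb into the gene, with 77 fragments (60.8 to 96.2) against 5.42. The intervals of these 3 peaks do not overlap each other, but that of the exon peak overlaps the interval of an intron peak of 62 fragments (47.5 to 79.5), so the order of that pair is not beyond counting error. The other 8 peaks ranged from 22 to 62 fragments, and their intervals overlap in part. No peak lay within 1 kb of the Tnfrsf1b start: the nearest were 3.21 kb upstream and 4.07 kb downstream. At the far end of the window, 2 of the 11 peaks lay nearest the start of another gene, Vps13d.

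The control level of 5.42 fragments recurs in these values because it is the floor of the list. No deposited peak has a lower one, and 83.1% of all peaks have this one. It applied to 52 of the 56 peaks (92.9%), and the highest control level at any of these genes was the 8.69 fragments at the Tnfrsf1b intron. At the floor, a fold enrichment of 4 needs about 25 fragments, whose Poisson interval is 16.2 to 36.9, so weak peaks on either side of that minimum cannot be told apart at this depth. Of the 56 peaks, 48 (85.7%) passed the high-confidence criteria, as did 85.7% of all peaks on the numbered chromosomes and X. The 8 others had 20 to 32 fragments. The deposited −log10 q ranged from 4.07 to 741 over the 56 peaks.

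Around TNFR1 binding was sparser. Tnfrsf1a (ENSMUSG00000030341.10, chromosome 6, 125299380 to 125312502, plus strand), whose product carries a death domain and is expressed by most cells, held 3 peaks of 137, 28 and 22 fragments. The strongest lay in an intron. Its height was 137 fragments (115 to 162) against a control level of 5.42, a fold enrichment of 21.5. Thus the strongest peaks of both TNF receptors were intronic, and the intervals of their heights do not overlap.

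The 6 costimulatory receptors of T cells all had a high-confidence peak, against 55.4% of all protein-coding genes, and together their windows held 19 distinct peaks, 16 of them of high confidence. Tnfrsf4 and Tnfrsf18, which encode OX40 and GITR, are neighbours in the same orientation on chromosome 4 (155387952 to 155390721 and 155400273 to 155403004). A peak of 183 fragments (157 to 212) lay 9.56 kb upstream of Tnfrsf4, where the nearest coding start was that of Sdf4. A second tall peak, of 155 fragments (132 to 181), lay between the genes, 8.55 kb downstream of the Tnfrsf4 start and 3.77 kb upstream of the Tnfrsf18 start, at 155395375 to 155396833. At 1459 bp it was the widest of the 56 peaks, and it lay within 1 kb of an annotated non-coding start. Beyond Tnfrsf18 followed 2 weaker peaks of 35 and 33 fragments. The heights of the pair of tall peaks do not differ beyond their counting intervals. Neither gene had a peak in its body.

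Tnfrsf14 (ENSMUSG00000042333.8, chromosome 4, 154296319 to 154302672, minus strand), which encodes HVEM, the receptor for LIGHT, had its tall peak 8.17 kb upstream. It held 153 fragments (130 to 179) against 5.42. Weaker upstream peaks of 34 and 26 fragments lay 14.2 and 15.9 kb from the start, and a peak of 21 fragments lay downstream. Tnfrsf9 (ENSMUSG00000028965.7, chromosome 4, 150288671 to 150320211, plus strand), which encodes CD137, had 6 peaks but none tall, with 53, 41, 29, 28, 23 and 20 fragments. The 2 peaks of 53 and 28 fragments lay within 1 kb of an internal Tnfrsf9 start, 10.6 and 9.86 kb into the gene. A peak of 29 fragments lay 0.109 kb upstream of the first Tnfrsf9 start, but even closer, at 0.016 kb, to a start of Park7. Thus HVEM had 1 peak above 100 fragments and CD137 had 0.

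Tnfrsf8, which encodes CD30 and lies directly upstream of Tnfrsf1b, had 3 peaks by the rule. All 3 lay downstream of the gene in the interval that it shares with the Tnfrsf1b upstream region, and all were nearest the Tnfrsf1b start, the tallest being the peak of 189 fragments described above. Within the 48.0 kb body of Tnfrsf8 there were 0 peaks. Tnfrsf25, which encodes DR3, had 2 peaks of 29 and 27 fragments, and the former is the Tnfrsf25 window printed above.

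**Figure D3:**
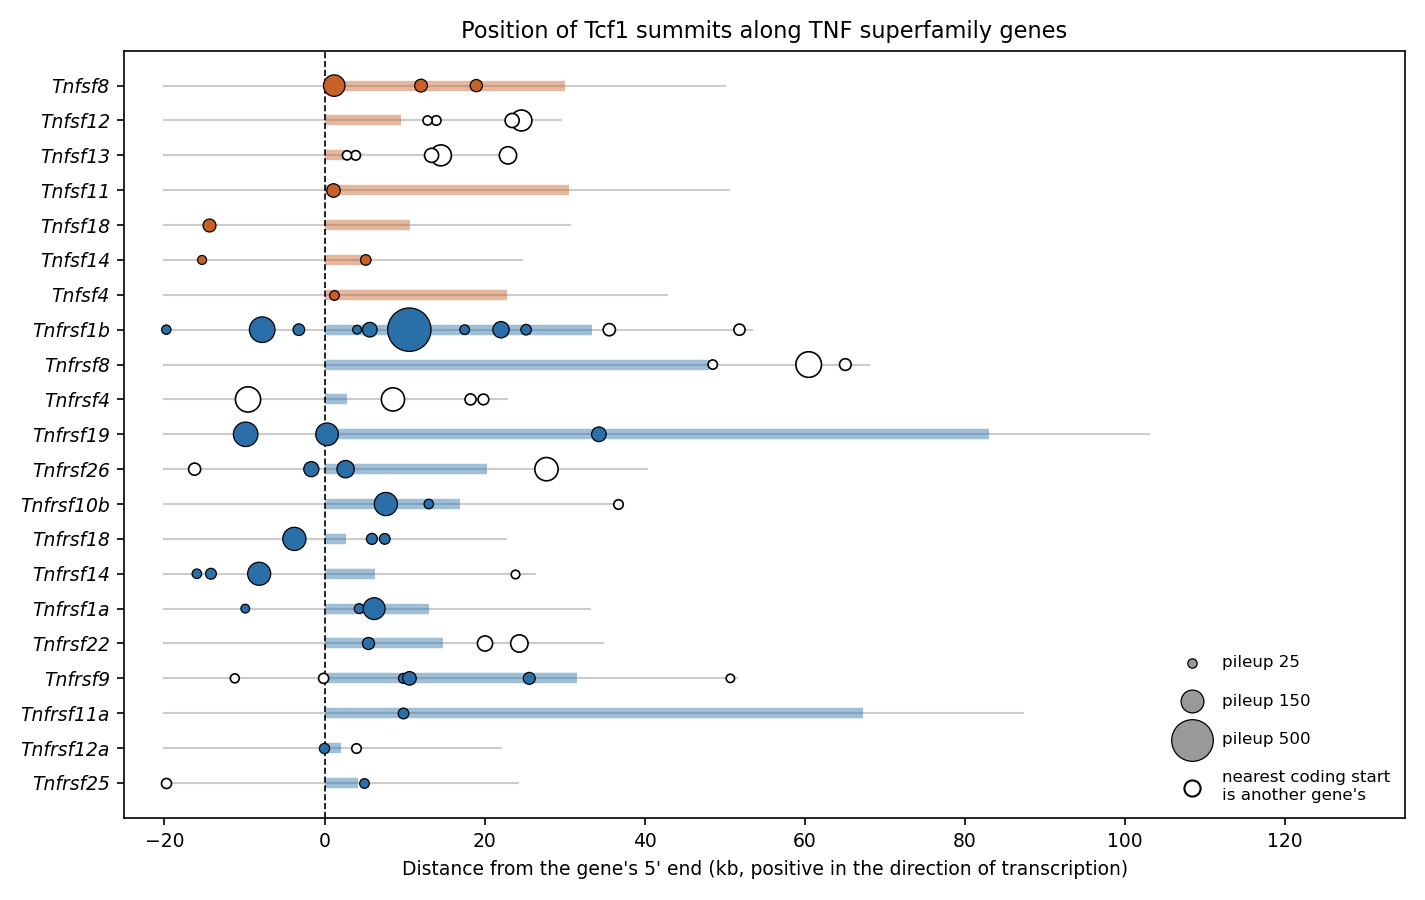
Distance of each Tcf1 summit from the 5′ end of the gene, in kb along the direction of transcription, for the 21 genes with a peak, with ligands in orange and receptors in blue. Thick bars are gene bodies, thin lines the 20-kb flanks, circle area is proportional to the WT pileup, and open circles mark summits whose nearest coding start belongs to another gene. The largest circle is the Tnfrsf1b intron peak at 10.6 kb, and every circle of Tnfrsf4, Tnfrsf8, Tnfsf12 and Tnfsf13 is open.

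Mouse chromosome 4 carried 9 of the 31 genes, and 8 of them had a peak, Tnfsf15 being the exception. Its 7 receptor genes held 27 distinct peaks. Counting shared peaks for each gene, this was 4.71 peaks per gene, against 1.46 for the 13 receptor genes elsewhere, of which 7 had a peak. Chromosome 4 as a whole did not stand out, with 1.52 peaks per protein-coding gene and a peak at 61.9% of its genes. Of the 12 peaks with 100 or more fragments, 6 were on chromosome 4. The 7 receptor genes lie in 5 separate places on the chromosome, and peaks shared by the overlapping pairs count for both genes in the mean. Tnfrsf1b alone held 11 of the 27 distinct peaks, and 3 of its peaks count again for Tnfrsf8. The split by chromosome was not among the planned results. No test was made of this contrast.

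The 6 genes listed as death or decoy receptors had unequal numbers of peaks. Tnfrsf10b (ENSMUSG00000022074.5, chromosome 14, 70167279 to 70184210, plus strand), which encodes the death receptor DR5, had 3 peaks of 155, 26 and 26 fragments. The summit of the tallest lay in an annotated exon 7.67 kb downstream of the start, with 155 fragments (132 to 181) against 5.42. The decoy receptor genes Tnfrsf22 and Tnfrsf23 and the related Tnfrsf26 form a tandem array on chromosome 7. Peaks of 87 fragments in a Tnfrsf26 intron, 66 fragments between the genes and 42 fragments in a Tnfrsf22 intron count for both genes. A further peak of 156 fragments at the end of the Tnfrsf26 window lay 0.124 kb from a start of Cars. Tnfrsf23 had 0 peaks, with the nearest summit 21.6 kb away. How closely these genes resemble each other in sequence was not measured. How reads that fit more than 1 place were assigned is not given in the sources used here, so the split among them is uncertain. Tnfrsf21 (DR6) and Tnfrsf11b (osteoprotegerin, a soluble decoy for RANKL) had 0 peaks, with the nearest summits at 129 and 268 kb.

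Among the remaining receptors, Tnfrsf19 had the most fragments. This gene (ENSMUSG00000060548.5, chromosome 14, 61582671 to 61665692, minus strand) encodes TROY, a receptor known mainly from the nervous system and hair follicles. It had 3 peaks, all nearest its own start. A peak of 173 fragments (148 to 201) against a control level of 7.35 lay 9.85 kb upstream, with the core 6 bp from the summit. A peak of 147 fragments (124 to 173) lay in the first exon, 0.317 kb from the start, without the core. An intron peak of 62 fragments (47.5 to 79.5) carried 2 copies of the core. The heights of the first pair do not differ beyond counting error, while the third was lower than both. Tnfrsf12a (Fn14, the receptor for TWEAK) had peaks of 30 and 26 fragments, the former 0.038 kb from its start, and Tnfrsf11a (RANK) had 1 intron peak of 33 fragments.

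The 3 receptors of the B cell survival factors, Tnfrsf13b, Tnfrsf13c and Tnfrsf17, had 0 peaks. Their nearest summits lay 25.6, 34.5 and 59.4 kb from the gene. This list was set up with earlier results of these data known, and a group of 3 genes supports no statement about B cell genes in general.

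Of the ligand genes, Tnfsf8, Tnfsf12 and Tnfsf13 had a peak of 100 or more fragments. Tnfsf8 (ENSMUSG00000028362.2, chromosome 4, 63492342 to 63522381, minus strand), which encodes the CD30 ligand, had 3 intron peaks of 133, 47 and 43 fragments. The tallest, at 63520891 to 63521425, lay 1.22 kb downstream of the start, with 133 fragments (111 to 158) against 5.42, a fold enrichment of 20.9. Its interval does not overlap those of the other 2, which overlap each other. Tnfsf8 was the only ligand gene whose tall peak was nearest its own start.

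Tnfsf12 and Tnfsf13, which encode TWEAK and APRIL and follow each other on chromosome 11, had 4 and 5 peaks by the rule. None of these peaks was nearest a start of either gene. The tallest, with 126 fragments (105 to 150) against a control level of 7.35, lay 0.014 kb from a start of Eif4a1, a translation initiation factor. The others lay within 1 kb of starts of Eif4a1 (57 fragments), Senp3 (26 and 24 fragments) or Mpdu1 (86 fragments, counted for Tnfsf13 only). When each peak was given only to the gene with the nearest coding start, the mean fell from 1.55 to 0.727 peaks per ligand gene and from 2.60 to 1.60 per receptor gene.

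The other ligand genes had few and low peaks. Tnfsf11 (RANKL) had 1 intron peak of 53 fragments, 1.03 kb downstream of its first start. Tnfsf18 (GITR ligand) had 1 peak of 48 fragments 14.5 kb upstream, and Tnfsf4 (OX40 ligand) 1 intron peak of 27 fragments. Tnfsf14 (LIGHT) had peaks of 32 and 23 fragments, with fold enrichments of 3.95 and 3.74, just under the minimum of 4. The former is the Tnfsf14 window printed above, with the core 7 bp from its summit and a control level of 7.35, above the floor. Tnfsf9 (CD137 ligand), Tnfsf10 (TRAIL), Tnfsf13b (BAFF) and Tnfsf15 (TL1A) had 0 peaks. Their nearest summits lay 25.3, 114, 29.1 and 20.2 kb away, so Tnfsf15 was only just outside the window.

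**Figure D4:**
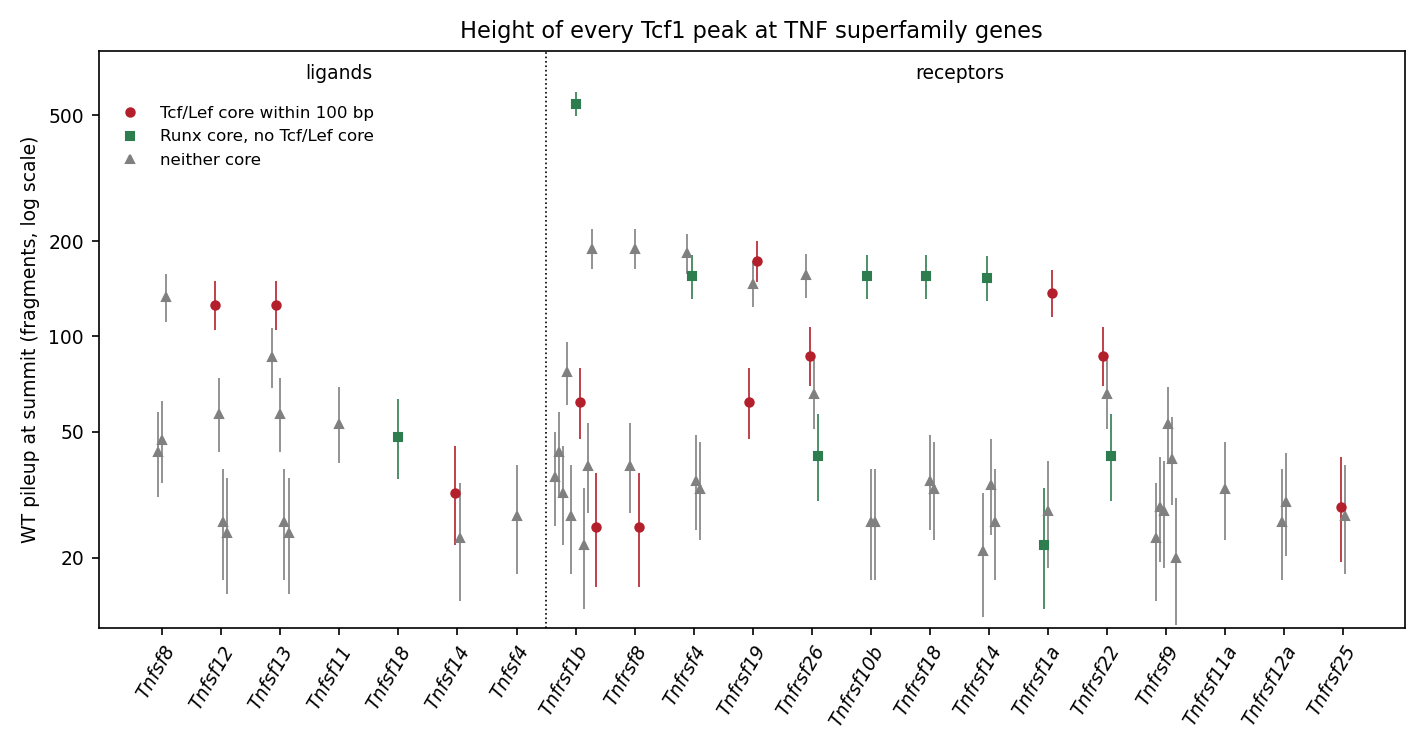
WT pileup at the summit (fragments, log scale) of every peak, by gene, with Poisson 95% intervals of the count, ligands on the left and receptors on the right. Red circles carry an exact Tcf/Lef core no more than 100 bp from the summit, green squares the Runx core only and grey triangles neither, and a peak shared by neighbours is drawn for both. The Tnfrsf1b intron peak, at 543 fragments, stands above all others, none of which exceeds 189.

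Ligands and receptors that bind each other were set side by side for 11 pairs, with 1 receptor per ligand. The receptor gene had more peaks in 6 pairs, the ligand gene in 2, and the numbers were equal in 3. In the 6 costimulatory pairs the receptor had more peaks in 5 and as many in 1. CD137 had 6 peaks against 0 at its ligand, and HVEM had 4 against 2 at LIGHT. OX40 had 4 against 1, but none of the 4 was nearest a Tnfrsf4 start, so that by nearest start this pair stood at 0 against 1. GITR had 3 against 1, and DR3 had 2 against 0 at TL1A. CD30 and its ligand both had 3, but those of Tnfrsf8 lay outside the gene and nearest another, while those of Tnfsf8 lay within it. Outside the costimulatory group DR5 had 3 against 0 at TRAIL. The 2 pairs with more peaks at the ligand were TWEAK with Fn14 (4 against 2) and APRIL with TACI (5 against 0), which are the ligands with peaks at neighbouring promoters. The pairs share peaks among neighbours and are not independent.

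In sequence and position the 56 peaks resembled the whole list in most respects. Of the 56, 18 (32.1%) lay within 1 kb of an annotated start of any gene, against 39.2% of all peaks, but only 6 (10.7%) lay within 1 kb of a start of a TNF superfamily gene. Those 6 belonged to 4 genes, Tnfrsf9, Tnfrsf12a, Tnfrsf19 and Tnfsf11. The nearest coding start was that of the gene itself for 40 of the 56 (71.4%). Median width was 440 bp against 446 bp, median pileup 37.5 against 40 fragments, and median GC content within 100 bp of the summit 51.5% against 51.7%. The Runx core was found in 8 peaks (14.3%), against 14.8% of all peaks, and the ETS core CGGAAGT in 2 (3.57%), against 6.51%. Among the 12 peaks of 100 or more fragments, 3 (25%) had the Tcf/Lef core, against 17.2% of all 2825 peaks of that height, 4 (33.3%) had the Runx core, against 22.5%, 0 had both and 5 had neither. No test was made of these shares.

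Family members whose symbols the rule does not match were described by lists. Of the 7 ligand genes, 5 had a high-confidence peak (71.4%, against 55.4% of all protein-coding genes). Fasl, the ligand that triggers apoptosis through Fas, had 8 peaks, the strongest with 874 fragments, more than any peak at the 31 genes. Tnf, Lta and Ltb, which lie together on chromosome 17, had 8, 9 and 7 peaks and share the strongest, of 75 fragments. Cd40lg had 3, of at most 99 fragments, and Cd70 and Eda had 0. Cd70 lies between Tnfsf9 and Tnfsf14 on chromosome 17, so the peaks of this cluster were the 2 weak ones at Tnfsf14. Of the 8 receptor genes, 3 had a peak (37.5%, against 58.9%): Cd27, a costimulatory receptor of naïve T cells, had 7 of at most 237 fragments, the tallest nearest the start of Vamp1, while Fas had 2 of at most 31 and Relt 2 of at most 103. Cd40, Ltbr, Ngfr, Edar and Eda2r had 0. With shared peaks counted for each gene, there were 35 peaks at these 7 ligand genes and 11 at these 8 receptor genes, so that the order by peak number was the reverse of that among the 31 genes. The windows of Tnf, Lta and Ltb overlap, and the strongest peaks, given above, did not all follow this order.

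Of 23 genes for adaptors and signal transducers of these receptors, 21 (91.3%) had a high-confidence peak, against the 55.4% of all protein-coding genes given above. Tradd, the adaptor of TNFR1, and Rbck1, a subunit of the linear ubiquitin ligase, were the exceptions. Among the TRAF adaptors the strongest peak was at Traf1 with 124 fragments, and Traf2 to Traf6 had at most 28 to 56. Tall peaks were also found at Ripk1 (183 fragments, 0.485 kb from the gene start) and Birc3 (163 fragments, 0.313 kb). Others were at Cflar, which encodes an inhibitor of caspase-8 activation (155 fragments, with the core), Map3k14 (136 fragments), Casp8 (131 fragments) and Relb (111 fragments). At Tnfaip3, the feedback inhibitor A20, the only peak had 103 fragments and lay 0.066 kb upstream of the start. Of all protein-coding genes, 12.3% had a strongest peak of 100 or more fragments. The strongest peak lay nearest the gene's own start at 16 of the 21 signalling genes with a peak and at 14 of the 21 TNF superfamily genes with a peak. The difference was not tested.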

How the data were processed

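Tcf1 ChIP-seq libraries from WT and Tcf1-deficient naïve CD8+ T cells, 1 each, were used through the deposited peak list. The authors aligned paired reads to mm9 with Bowtie2 2.2.5 and called peaks with MACS 2.1.1.20160309 in paired-end mode at p under 1e-05, keeping 1 fragment per position. The filter on mapping quality for these libraries is not given in the sources used here. In the deposited file the signal (pileup) counts WT fragments at the summit, the fold enrichment is a ratio of pileup plus 1 to control level plus 1, and the deposited −log10 q compares the 2 libraries (−log10 p was not used, since every row passed the caller's limit). The header states that q would not be calculated, but every deposited q was positive. No deposited column was adjusted.

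The control level was computed back from pileup and fold enrichment. Genes, starts and exons came from GENCODE vM1 and sequences from NCBIM37, which is mm9. Protein-coding records of 1 symbol that overlap on 1 strand were merged, which made 31 genes of 32 records (Tnfrsf22 has 2). The 59 peaks on other chromosomes were left out of comparisons. Each core was looked for on both strands, up to 100 bp either side of the summit. Poisson 95% intervals of pileups cover counting error only. Because there was 1 library per group, no test was run. Every gene was to be accounted for, with peak-by-peak values for those with the 12 largest strongest peaks. The weaker peaks of Tnfrsf1b, some of them shared with Tnfrsf8, are given mostly as a range. The members, the lists and the sequence cores were chosen with earlier results of these data known, and the ligand and receptor pairs after the peak numbers were seen. The sequences of the other peaks with the core are not reported here. Assignment and motif search were tested on simulated data. Alternatives were other peak thresholds, windows and assignment rules. Python 3.11.15, pandas 2.3.3 and scipy 1.17.1 were used.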

Additional observations from a re-analysis of the deposited data

How the results depend on the processing

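No paired analysis was possible because each group had 1 library and no test was run, and for the same reason no replicate could be left out. Of 76 alternative values for 10 results, 48 stayed within a 95% counting interval of the value reported, 26 moved beyond it and 2 changed sign. For the number of peaks the limit was 1.5 times. For a median pileup the interval is that of a single count of that size, not of a median over genes. For shares and peaks per gene it treats genes or peaks as independent. Staying or moving is therefore a yardstick and not a test. The difference in the share of genes with a peak, receptors minus ligands, was 6.36 percentage points, −5.91 with 50-kb flanks and −2.73 when any overlap of the peak with the window counted, so its direction was not stable. Peaks per receptor gene exceeded peaks per ligand gene under all 8 alternatives. Tnfrsf1b was left out only with the 20-kb window, where the receptor mean became 2.16. In gene bodies alone, where Tnfrsf1b held 6 peaks, the order without it was not examined.

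With high-confidence peaks the median strongest pileup of ligand genes was 89.5. At a fold enrichment of at least 8, 48.4% of the 31 genes had a peak and there were 21 distinct peaks. There were 0.636 peaks per ligand gene and 1.0 per receptor gene, and the ligand median was 126. Of the distinct peaks, 28.6% had the Tcf/Lef core. The core share over all deposited peaks at this threshold was not computed. It was 9.77% over all peaks and 17.2% over all peaks of 100 or more fragments. At q under 1e-10 there were 35 peaks, 1.75 per receptor gene, and the ligand median was 126. In gene bodies alone, 38.7% of the 31 genes and 40.0% of receptor genes had a peak. There were 24 peaks, 0.545 per ligand and 0.900 per receptor gene, with a receptor median of 112. With 5-kb flanks there were 37 peaks, 1.45 per receptor gene, and medians of 29.5 (ligands) and 70.0 (receptors). With 50-kb flanks 87.1% of the 31 genes and 90.9% of ligand genes had a peak, with 4.05 per receptor gene. Shares over all protein-coding genes were not computed for these other windows. By the nearest coding start there were 0.727 peaks per ligand and 1.60 per receptor gene and a receptor median of 112. Fewer peaks under a stricter threshold or narrower window follow from its construction. The cause of the other moves was not tested. At the depth of these libraries, peaks near 25 fragments are within counting error of the fold minimum.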
